A study of Mus musculus with 4 samples.

Results

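The integrated stress response and endoplasmic reticulum (ER) stress genes described here were Ppp1r15a, Gadd45b, Nupr1, Ddit3, Atf4, Xbp1, Hspa5 and Herpud1, 8 of the 28692 genes in the deposited count table. The 8 genes were chosen by name, with earlier results of the same libraries known, so their direction between groups is a description and not independent evidence. The cells were selected on measured values, namely at least 1000 UMIs per barcode (a UMI, or unique molecular identifier, marks 1 captured transcript), and were grouped by their UMIs of Ly6c2 and C1qa. All 8 passed the filter on low values in every comparison. On mm10 (GENCODE M21) all are protein-coding: Ppp1r15a (chr7:45522916-45526268) and Nupr1 (chr7:126623249-126630861) on the minus strand, and Gadd45b (chr10:80930073-80932204), Ddit3 (chr10:127290774-127296288), Atf4 (chr15:80255184-80257541), Xbp1 (chr11:5520659-5525893), Hspa5 (chr2:34771970-34777547) and Herpud1 (chr8:94386438-94395377) on the plus strand.

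The libraries came from the colon lamina propria of 4 male C57/Bl6N mice, 1 library per mouse. Mice 11 and 13 had received 12 µg diesel exhaust particles (DEP) in 200 µL phosphate-buffered saline (PBS) by gavage on 5 days of the week over about 6 months, and mice 2 and 3 had received PBS alone. Cells had been sorted as Cd11b+ and either Ly6c2+ or Cd64+, a gate that holds monocytes and macrophages of any stage, and were captured with 10x Genomics 3' v2 chemistry. The age of the mice was not given in the sources used here, and with 2 mice per group each difference between DEP and PBS rests on 4 values.

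The integrated stress response is a program in which kinases that sense amino acid lack, viral RNA, haem lack or misfolded ER protein phosphorylate the translation factor eIF2. General translation then falls while the transcription factor ATF4 is made from its existing mRNA, and ATF4 raises CHOP (the product of Ddit3) and GADD34 (the product of Ppp1r15a), which guides a phosphatase back to eIF2. Misfolded protein in the ER also activates IRE1, which splices the mRNA of the transcription factor XBP1, and ATF6; both raise the chaperone BiP (Hspa5) and the degradation factor HERP (Herpud1). Heat shock genes answer misfolded protein in the cytosol through the factor HSF1 and served as the contrast. Counts of 3' transcript ends show neither the translation of Atf4 nor the splicing of Xbp1.

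Of the 6954 barcodes, 4771 held at least 1000 UMIs, and 4448 were analysed after barcodes with a mitochondrial share over 7% and lymphoid barcodes had been set aside. DEP mouse 11 gave 1153 of them, DEP mouse 13 gave 610, PBS mouse 2 gave 1213 and PBS mouse 3 gave 1472, with 3856639 to 9622760 UMIs per mouse and a median of 5360 to 7237 UMIs per cell. A barcode sequence occurred in more than 1 library in 36 cases. To compare cells of unequal depth, each was thinned at random to 1000 UMIs. Cells with Ly6c2 and no C1qa UMI then formed a Ly6c2 class of 201 cells (27 to 63 per mouse), and cells with C1qa and no Ly6c2 UMI formed a C1qa class of 3290 cells (460 to 1089 per mouse). A further 453 cells held both and 504 neither. Ly6c2 marks recruited monocytes, and C1qa, a subunit of complement C1q, marks tissue macrophages. The classes bore out these labels in the monocyte and macrophage markers not used to cut them. All 6 tested monocyte markers, Plac8, Chil3, F13a1, Hp, Ccr2 and Itgb7, were lower in the C1qa class, and all 11 tested macrophage markers were higher there (edgeR adjusted p under the 5% threshold for each). Some markers of other cell types were also called higher in the C1qa class: 1 of 4 tested plasma cell markers, 1 of 2 dendritic cell markers, and the 1 tested B cell, epithelial and stromal marker. The other dendritic cell marker and the 1 tested neutrophil marker were lower there. Their part was not tested. The separation was incomplete, since C1qa stood at 514 to 983 counts per 1000000 UMIs (CPM) in the full counts of the Ly6c2 class and at 4481 to 5556 CPM in the C1qa class.

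The promoters shown are those of the 4 members that held a match to a searched motif. They are the ER chaperone gene Hspa5, the phosphatase subunit gene Ppp1r15a, and Nupr1 and Herpud1, which differed most between the classes. The letters are the 150 bases before the RefSeq start of each gene (build GRCm38.p6), read on the strand of the gene, with motif matches in capitals. Hspa5 lies at chr2:34771940-34772089 on the plus strand, Herpud1 at chr8:94386279-94386428 on the plus strand, Nupr1 at chr7:126625471-126625620 on the minus strand and Ppp1r15a at chr7:45526269-45526418 on the minus strand.
Hspa5: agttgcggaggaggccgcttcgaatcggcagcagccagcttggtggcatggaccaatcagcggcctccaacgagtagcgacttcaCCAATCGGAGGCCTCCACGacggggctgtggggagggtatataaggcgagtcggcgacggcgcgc
Herpud1: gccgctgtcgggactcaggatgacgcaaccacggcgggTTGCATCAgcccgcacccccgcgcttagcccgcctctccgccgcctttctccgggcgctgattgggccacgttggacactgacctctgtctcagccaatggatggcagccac
Nupr1: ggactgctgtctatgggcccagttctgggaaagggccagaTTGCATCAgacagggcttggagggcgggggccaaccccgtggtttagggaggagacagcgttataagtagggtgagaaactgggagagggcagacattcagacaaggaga
Ppp1r15a: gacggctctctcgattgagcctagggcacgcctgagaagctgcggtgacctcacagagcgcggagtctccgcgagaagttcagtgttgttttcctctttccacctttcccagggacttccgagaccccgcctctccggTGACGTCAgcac
The capitals in Hspa5 are an ER stress element, CCAAT and CCACG with 9 bases between them, the arrangement bound by ATF6 and XBP1, and it ended 47 bases before the start. It was held by 39 of 32851 mouse windows of 300 bases (250 before and 50 after the start), or 0.119%. The capitals in Nupr1 and Herpud1 are the same 8 letters, TTGCATCA, which on the other strand match TGATGNAA, the CHOP and ATF4 response motif. They began 110 bases before the start of Nupr1 and 112 before that of Herpud1, and 3.97% of all windows held a match. The capitals in Ppp1r15a are TGACGTCA, the palindromic cAMP response element, 12 to 5 bases before the start, held by 1.79% of windows. On both strands of the 8 windows, 4 members held a match and Gadd45b, Ddit3, Atf4 and Xbp1 held none. The XBP1 motif TGACGTGG (0.676% of windows) was in none of the 8, and a heat shock element of GAA, TTC and GAA with 2 bases between each (or its reverse order, 0.603% of windows) was not in the windows of Hspa1a, Hspb1 or Dnajb1. A match describes the letters alone.

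The first comparison asked whether the stress genes differed between DEP and PBS mice. Over all analysed cells, 5 of the 8 genes were lower in both DEP mice than in both PBS mice: Ppp1r15a, Gadd45b, Nupr1, Ddit3 and Hspa5, at 0.64 to 0.73 of the PBS level. Atf4, Xbp1 and Herpud1 overlapped between the groups. None of the differences passed an adjusted threshold over all tested genes, as given below.

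Ppp1r15a, the feedback phosphatase subunit that ends the response, stood at 174 CPM in DEP mouse 11 and 155 CPM in DEP mouse 13, against 257 CPM in PBS mouse 2 and 259.5 CPM in PBS mouse 3. The values within each group lay closer together than the groups did. The log2 fold change was −0.65 (SE 0.16, 95% interval −0.997 to −0.301, n = 2 mice per group, edgeR adjusted p = 0.757), or 0.64-fold.

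Gadd45b, a stress sensor that binds the kinase MEKK4 and is also induced through NF-kB, stood at 149 and 161 CPM in the DEP mice and at 260.3 and 215 CPM in PBS mice 2 and 3. Its log2 fold change was −0.61 (SE 0.16, 95% interval −0.98 to −0.25, edgeR adjusted p = 0.999). Nupr1, a small stress-induced chromatin protein, stood at 79.2 CPM in DEP mouse 11 and 107 CPM in DEP mouse 13, against 132 CPM in either PBS mouse. The PBS mice were alike and the DEP mice were spread, with a log2 fold change of −0.51 (95% interval −0.92 to −0.09). It was −0.28 without DEP mouse 11 and −0.77 without DEP mouse 13.

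Ddit3, whose product CHOP is the effector that turns prolonged ER stress towards cell death, was sparse, with 31.1 and 34.7 CPM in the DEP mice and 45.5 and 44.6 CPM in the PBS mice. Its log2 fold change was −0.46 (95% interval −0.84 to −0.08). Hspa5, the ER chaperone of the HSP70 family, stood at 689 and 673 CPM in the DEP mice and at 902 and 953 CPM in the PBS mice. Each group was tight and the groups did not overlap, with a log2 fold change of −0.45 (SE 0.15, 95% interval −0.78 to −0.11).

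The other three members showed no such order. Atf4, the central transcription factor, stood at 67.4 and 62.5 CPM in the DEP mice, between the 81.3 CPM of PBS mouse 2 and the 53.5 CPM of PBS mouse 3. Xbp1 stood at 150.4 and 136 CPM in the DEP mice and at 172 and 133 CPM in PBS mice 2 and 3. Herpud1, an ER membrane protein of the degradation machinery, stood at 219 and 182 CPM in the DEP mice and at 197 and 211 CPM in the PBS mice. The 95% intervals of the log2 fold change ran from −0.47 to 0.38 for Atf4, from −0.45 to 0.28 for Xbp1 and from −0.39 to 0.34 for Herpud1, so that a change of the size seen in Ddit3 lay at or just past the edge of each. Their signs also turned when 1 mouse was left out, for Atf4 and Xbp1 without PBS mouse 2 (0.24 and 0.06) and for Herpud1 without DEP mouse 13 or PBS mouse 3 (0.07 in each case).

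**Figure D1:**
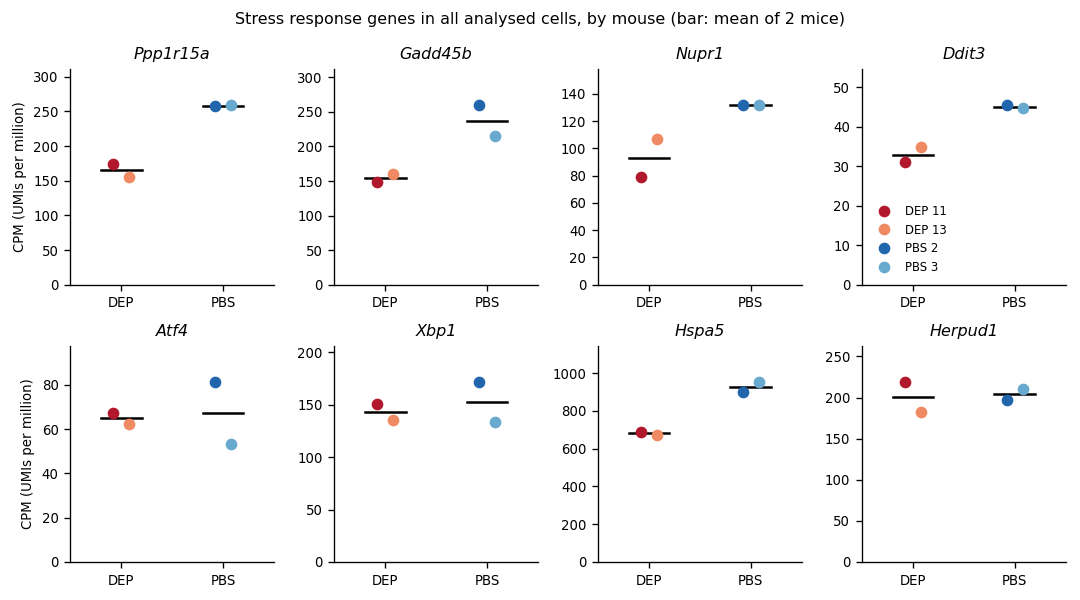
Level of each stress gene (CPM, linear axis from 0) in all analysed cells, 1 point per mouse and a bar at the mean of 2 mice. DEP and PBS points are separate for Ppp1r15a, Gadd45b, Nupr1, Ddit3 and Hspa5 and overlap for Atf4, Xbp1 and Herpud1.

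With edgeR's quasi-likelihood test on UMIs summed per mouse, 0 of 8 members and 0 of 6622 genes (0%) passed an adjusted p of 5%. At an unadjusted p under 0.05 there were 5 members and 182 genes, and the smallest adjusted p of any gene was 0.148. DESeq2 called 4 genes, limma voom 0 and the edgeR likelihood ratio test 11, with 0 members in each. With no filter on low genes edgeR called 88 genes, Ppp1r15a among them at an adjusted p of 0.0387. The median log2 fold change was −0.45 over the 8 members and −0.0041 over all genes. Both DEP mice lay below both PBS mice in 5 of 8 members and in 12.5% of all tested genes.

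In cells of 1000 to under 3000, of 3000 to under 6000 and of 6000 or more UMIs, both DEP mice were below both PBS mice in all 3 ranges for the same 5 members and in none for Atf4, Xbp1 and Herpud1. Of the 6622 tested genes, 15%, 14.4% and 13.9% had that order in the respective ranges and 1.28% had it in all 3. The ranges hold cells of the same 4 mice and are not replicates. For Ppp1r15a the shallow cells gave 206 and 163 CPM in the DEP mice and 388.5 and 338 CPM in the PBS mice, and the deep cells gave 156 and 141 against 246 and 232 CPM. The level was lower in the deep than in the shallow cells of every mouse, and the groups stayed apart. Barcodes under 500 UMIs were not analysed and can hold free RNA. There Ppp1r15a stood at 433 and 452 CPM in the DEP mice and at 411 and 451 CPM in the PBS mice, higher than in the cells. Ppp1r15a and Gadd45b had no gap between the groups there, but Nupr1, Ddit3 and Hspa5 kept both DEP mice below both PBS mice. Nupr1 had 67.2 and 80.7 against 156 and 185 CPM, from 5 to 23 UMIs per mouse. Hspa5 had 739 and 871 against 1019 and 910 CPM. The part of free RNA was not tested.

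Most heat shock genes also lay below 0, and none was called. Of the 21 tested, 20 lay below 0, 7 had an unadjusted p under 0.05, and the median log2 fold change was −0.49 (edgeR, smallest adjusted p of 0.447). Both DEP mice were below both PBS mice in 9 of the 21, against 12.5% of all tested genes, and the groups overlapped in the other 12. Hspa1a, the inducible HSP70, stood at 1226.5 and 1267 CPM in the DEP mice and at 2540.3 and 2019 CPM in PBS mice 2 and 3. Hspa1b is a near-identical copy with which reads can be exchanged. Dnajb1, an HSP40 partner of HSP70, stood at 154 and 225 CPM in the DEP mice, 341 CPM in PBS mouse 2 and 730 CPM in PBS mouse 3, and Bag3 at 20.2, 32.2, 52.1 and 108 CPM in the same order. The PBS mice thus differed by about as much as the groups in Dnajb1 and Bag3, whereas in Ppp1r15a, Nupr1, Ddit3 and Hspa5 they lay close together. Summed over the list, heat shock genes gave 6951 and 7717 CPM in the DEP mice and 9024 and 12564 CPM in the PBS mice, and the 8 members gave 1559 and 1510.4 against 2047 and 2002 CPM.

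The list of immediate early genes, which tissue dissociation is known to induce, lay below 0 in 17 of 18 tested genes, with a median of −0.28. In 8 of these genes both DEP mice lay below both PBS mice, an order that 12.5% of all tested genes had. The summed level of the list, 11219 and 9005 CPM in the DEP mice, overlapped the 13372 and 10146 CPM of the PBS mice. Ier2 and Jun had the smallest p, with log2 fold changes of −0.73 and −0.62 and no call. Whether heat shock or immediate early induction during preparation had a part in the lower stress genes was not tested. The RNA of plasma cells, which are rich in Xbp1, did not follow the groups, with a summed marker level of 3775 and 6142 CPM in the DEP mice and 3050 and 8769 CPM in the PBS mice.

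**Figure D2:**
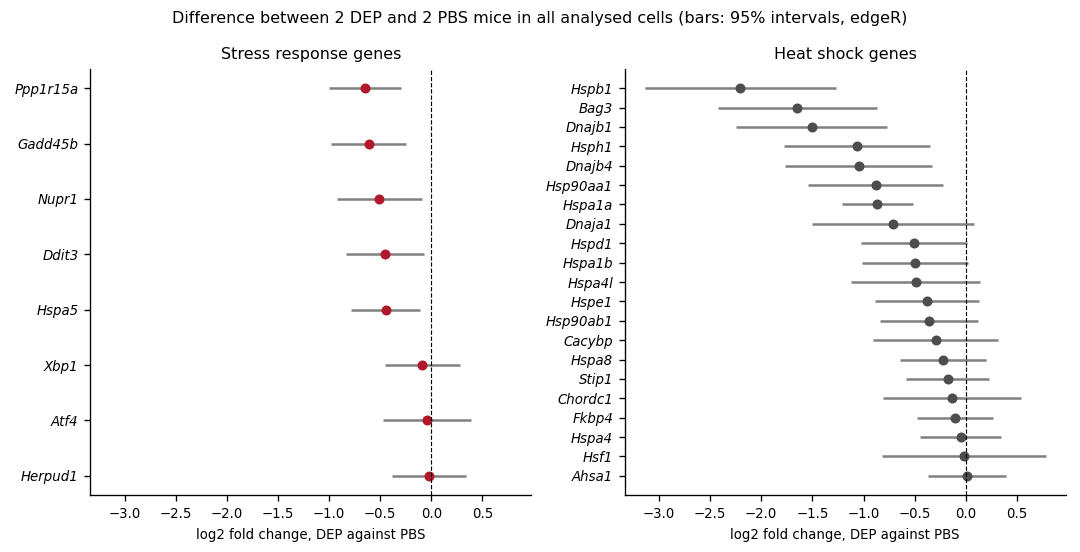
Log2 fold change between 2 DEP and 2 PBS mice over all analysed cells, with 95% intervals from edgeR, for the 8 stress genes (left) and the 21 tested heat shock genes (right). In all, 5 stress genes have intervals below 0, and Hspb1, Bag3 and Dnajb1 lie lowest among the heat shock genes.

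The wider pathway lay closer to 0 than the 8 genes did. Of 11 tested kinases and subunits of the eIF2 machinery, 4 lay below 0 and 7 above, with a median of 0.05 and 0 at an unadjusted p under 0.05; Ppp1r15b, the constitutive partner of Ppp1r15a, had a log2 fold change of 0.35. Of 21 tested ATF4 and CHOP targets, 13 lay below 0, with a median of −0.05, and 1 had an unadjusted p under 0.05, the cystine transporter gene Slc7a11 at 0.50. The 5 tested sensors and proteases of the unfolded protein response (Atf6, Atf6b, Mbtps1, Creb3 and Nfe2l1) had a median of 0.01, and 22 degradation and translocation genes had a median of −0.02. Of 18 tested ER chaperones and folding enzymes, 16 lay below 0 with a median of −0.20. In 7 of them both DEP mice lay below both PBS mice, an order that 12.5% of all tested genes had. Creld2 had −0.38 and Pdia6 −0.26. In the list of Gadd45 genes and NF-kB feedback genes, 12 tested, the median was −0.05 and Gadd45g had −0.78. edgeR called none of the genes in these lists (smallest adjusted p of 0.999).

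The same comparison was made within the classes. In the C1qa class, where the sums held 101 to 7107 UMIs per member and mouse, the values were close to those over all cells: Ppp1r15a stood at 171 and 143 CPM in the DEP mice and 245 and 253 CPM in the PBS mice (log2 fold change −0.66, SE 0.17, edgeR adjusted p = 0.616). Nupr1 stood at 62.2 and 84.7 against 114 and 106 CPM, a log2 fold change of −0.58 that was −0.34 without DEP mouse 11. Both DEP mice lay below both PBS mice for the same 5 members, against 13.6% of 6815 tested genes. edgeR called 0 members and 0% of the genes (226 at an unadjusted p under 0.05, 5 of them members), DESeq2 called 5 genes, the likelihood ratio test 13 and limma voom 0, with 0 members in each. With no filter on low genes 80 were called, with Ppp1r15a at an adjusted p of 0.0351. Of the 7 monocyte markers tested in this class, 3 were also lower in both DEP mice, with a summed level of 1548 and 1207 CPM against 1606 and 1413 CPM, and their part was not tested.

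In the Ly6c2 class the counts were few. Ddit3 rested on 3 to 14 UMIs per mouse, Herpud1 on 9 to 35 and Atf4 on 12 to 31. Ppp1r15a rested on 31 to 100 UMIs and stood at 146 and 241 CPM in the DEP mice against 330 and 346 CPM in the PBS mice, without overlap (log2 fold change −0.90, SE 0.28, 95% interval −1.48 to −0.31, edgeR adjusted p = 0.999). Leaving out 1 mouse gave −1.25 to −0.49, the latter without DEP mouse 11. Nupr1, at 195 and 249 against 254 and 353 CPM, was the other member without overlap, 2 of 8 against 15.4% of 5532 tested genes. Its log2 fold change of −0.51 was −0.29 without DEP mouse 11, −0.79 without PBS mouse 2 and −0.21 without PBS mouse 3. Gadd45b was spread over 129 and 327 CPM in the DEP mice, on either side of the 231 and 269 CPM of the PBS mice, and without DEP mouse 11 the signs of Gadd45b (0.38) and Ddit3 (0.21) turned. edgeR called 0 members and 0% of the genes (180 at an unadjusted p under 0.05, Ppp1r15a the only member), as did DESeq2, limma voom and the likelihood ratio test. Of the 11 macrophage markers tested in this class, 7 were lower in both DEP mice, with a summed level of 14494 and 10801 CPM against 18914 and 14692 CPM, and their part was not tested.

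The difference between the DEP effects of the classes was tested as an interaction. It was called for 0 of 8 members (edgeR, smallest adjusted p of 0.985, 0 members at an unadjusted p under 0.05) and for 2 of 6766 genes (0.0296%). For Ppp1r15a the effect in the C1qa class minus that in the Ly6c2 class was 0.35, with a 95% interval from −0.17 to 0.86, and for Ddit3 it was 0.56, from −0.66 to 1.78. DESeq2 and limma voom called 0 genes.

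The second comparison asked how the stress genes differed between cells marked by Ly6c2 and by C1qa. With the mouse as a block, edgeR called 3 of the 8 members between the C1qa and the Ly6c2 class: Nupr1 was lower, and Herpud1 and Hspa5 were higher, in the C1qa class. Over all 6766 tested genes 19.2% were called, 8.85% higher and 10.4% lower, and the count of 3 in 8 members is read against those shares.

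Nupr1 stood at 195, 249, 254 and 353 CPM in the Ly6c2 class of DEP mice 11 and 13 and PBS mice 2 and 3, and at 62.2, 84.7, 114 and 106 CPM in their C1qa class. Every mouse had less in the C1qa class and the classes did not overlap. The log2 fold change was −1.48 (SE 0.13, edgeR adjusted p = 1.26e-12), or 0.36-fold. Cells with both genes lay in between, at 138 to 182 CPM. With classes cut on unthinned counts, which left 2 to 19 cells per mouse in the Ly6c2 class, the log2 fold change was −0.96 and the call was lost (edgeR adjusted p = 0.170).

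Herpud1 went the other way, with 108, 70.1, 72.5 and 129 CPM in the Ly6c2 class and 244, 206, 212 and 224 CPM in the C1qa class of the same mice. The log2 fold change was 1.23 (SE 0.15, edgeR adjusted p = 8.20e-09), or 2.35-fold, and again no mouse overlapped. Nupr1 and Herpud1 thus had opposite orders. Their promoters share the 8-letter match, but motifs beyond those named above were not searched for. The part of any motif was not tested.

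Hspa5 stood at 640, 467, 748 and 629 CPM in the Ly6c2 class and at 706, 705, 919 and 971 CPM in the C1qa class. It was higher in the C1qa class of every mouse, although the Ly6c2 class of PBS mouse 2 lay above the C1qa class of either DEP mouse. The log2 fold change was 0.43 (SE 0.08, edgeR adjusted p = 8.93e-05), or 1.34-fold. Without the mouse block its edgeR adjusted p was 0.0629, with 950 genes called, and with unthinned classes it was 0.0991.

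The remaining members were not called. Ppp1r15a had a log2 fold change of −0.31 (95% interval −0.55 to −0.07, edgeR adjusted p = 0.0596) and was lower in the C1qa class of 3 mice, with 171 against 146 CPM in DEP mouse 11. Without that mouse it was called, at −0.46 (edgeR adjusted p = 0.00728). Atf4 had −0.39 (95% interval −0.74 to −0.04, edgeR adjusted p = 0.123), Gadd45b −0.21 (−0.48 to 0.06), Xbp1 −0.13 (−0.40 to 0.13) and Ddit3 0.10 (−0.44 to 0.63). With a wider Ly6c2 class of 41 to 131 cells per mouse, chosen after seeing the data, against cells with at least 5 C1qa UMIs, 6 members were called, Ppp1r15a at −0.44, Gadd45b at −0.47 and Xbp1 at −0.49 among them, while 2136 genes were called in all. Other settings turned the direction of these 3, and none of the values that follow was called by edgeR. Ppp1r15a was at 0.063 with a class cut of 2 UMIs and at 0.079 with classes from unthinned counts. Gadd45b was at 0.16 and 0.016 in those settings and at 0.19 with every cell thinned to 1000 UMIs. Xbp1 was at 0.11 with thinned cells. Leaving out 1 mouse gave −0.36 (without PBS mouse 2) to −0.038 (without DEP mouse 13) for Gadd45b and −0.21 (without DEP mouse 13) to −0.046 (without PBS mouse 2) for Xbp1.

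**Figure D3:**
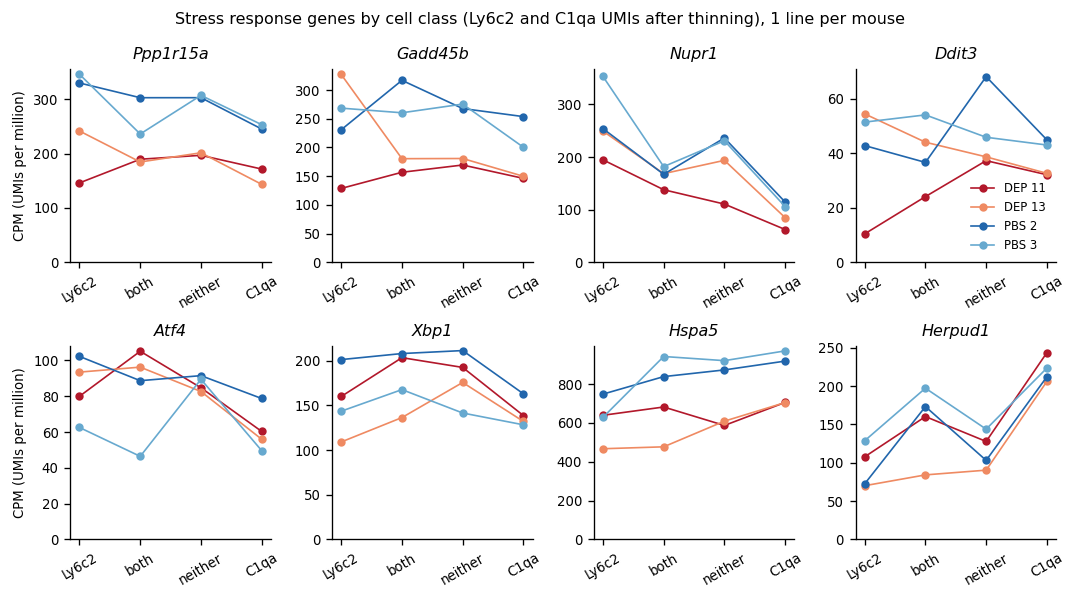
Level of each stress gene (CPM, linear axis from 0) in cells of the Ly6c2 class, with both genes, with neither and of the C1qa class, 1 line per mouse. Nupr1 falls and Herpud1 rises from the Ly6c2 to the C1qa class in all 4 mice; the lines of Ddit3 cross, and its Ly6c2 class holds 3 to 14 UMIs per mouse.

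Nupr1 and Herpud1 had graded levels over finer steps of C1qa. Over cells with 0, 1 or 2, 3 to 5, and 6 or more C1qa UMIs (705, 1300, 1129 and 1314 cells), the mean Nupr1 level over the 4 mice was 211 ± 55.5, 171 ± 29.7, 78.3 ± 27.8 and 67.5 ± 22.0 CPM (SD, n = 4). Herpud1 went over the same bins from 110.0 ± 25.5 to 151 ± 11.8, 223 ± 21.0 and 252 ± 31.1 CPM. The largest step of either gene lay between 1 or 2 and 3 to 5 UMIs. Ppp1r15a went from 255 ± 68.9 to 189 ± 50.4 CPM and Gadd45b from 226 ± 51.4 to 166 ± 39.0 CPM, with 242 ± 92.4 CPM in the second bin. Both genes were lower in the last than in the first bin of each of the 4 mice. The bins share these mice, and the difference between bins was not tested. Ddit3 went from 44.8 to 33.7 CPM and Atf4 from 86.6 to 60.3 CPM. Xbp1 went from 173 to 136 CPM, and Hspa5 stayed between 714 and 834 CPM in all bins. By Ly6c2, cells with 0, 1, and 2 or more UMIs (3794, 466 and 188 cells) had 102, 168 and 262 CPM of Nupr1 and 211, 150.4 and 105 CPM of Herpud1. Depth moved with these bins, since the Ly6c2 class had a median of 4479 to 5778.5 UMIs per cell and the C1qa class 5860 to 7785 UMIs, and the part of depth was not tested apart from the alternative with every cell thinned to 1000 UMIs.

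**Figure D4:**
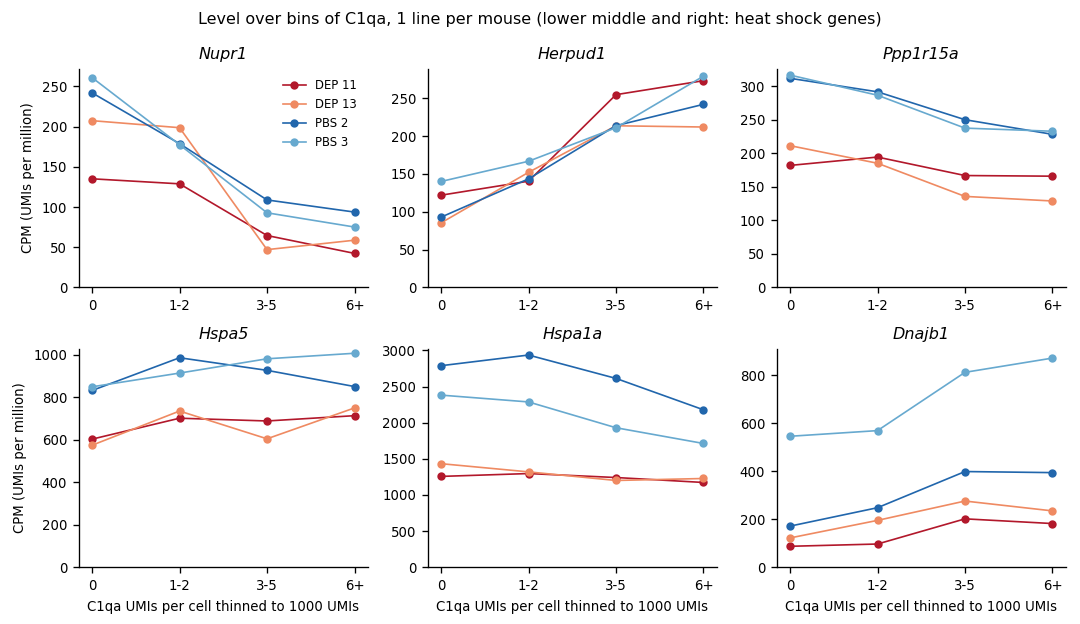
Level (CPM, linear axis from 0) over bins of C1qa UMIs per thinned cell, 1 line per mouse, for 4 stress genes and the heat shock genes Hspa1a and Dnajb1. Nupr1 falls and Herpud1 rises in every mouse from the lowest to the highest bin, and in Ppp1r15a the DEP and PBS lines stay apart in each bin.

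Heat shock genes were split between the classes. Of 21 tested, 4 were higher and 1 was lower in the C1qa class, with a median of −0.0035. Of all tested genes 8.85% were higher and 10.4% lower. Dnajb1 had a log2 fold change of 1.29 (edgeR adjusted p = 1.60e-11) and Bag3 had 1.34, while Hspa8, the constitutive HSP70, had −0.26. Hspb1 was also called, but its Ly6c2 class held 2 UMIs in 1 mouse and 0 in the others, so no fold is given. Hspa1a, with −0.17, was not called.

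Of 19 ER chaperones and folding enzymes tested, 12 lay above 0 and 7 below. Among them 5 were higher in the C1qa class and 0 lower, namely Sdf2l1 (log2 fold change 0.51), Pdia4 (0.75), Pdia3 (0.38), Calr (0.34) and Fkbp2 (0.46), and the median over the 19 was 0.19. Of 22 degradation and translocation genes, a list to which Herpud1's product is related by function, 4 were lower and 0 higher. The median of the 22 was 0.04, and 12 lay above 0. The 4 called were the translocon genes Sec61b (−0.62) and Sec61g (−0.44), Ssr2 (−0.42) and the signal peptidase gene Sec11c (−0.33). Other Ssr and signal peptidase genes of the list were not called. Of all tested genes in this comparison 8.85% were higher and 10.4% lower, the shares against which the counts here stand. Of 21 ATF4 and CHOP targets, Gdf15 was higher (1.31) and Cebpb (−1.37), Mthfd2 (−0.80), Eif4ebp1 (−0.54) and Atf3 (−0.22) were lower. The 11 genes of the eIF2 machinery and the 5 sensors gave 0 calls (edgeR; 1 and 0 at an unadjusted p under 0.05). Of 18 immediate early genes 3 were higher and 4 lower, and of 12 Gadd45 and NF-kB feedback genes 2 were higher and 3 lower, with Gadd45g at 0.90 and Gadd45a at −1.65, on either side of Gadd45b.

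Other cell types held these genes at other levels. In the 97 barcodes set aside as plasma or B cells by immunoglobulin genes, Xbp1, which plasma cells need for secretion, stood at 753, 762, 1224 and 612 CPM in DEP mice 11 and 13 and PBS mice 2 and 3, 4.59 to 7.13 times the level of the analysed cells. Hspa5 stood there at 1470.3, 810, 972 and 931 CPM and Herpud1 at 269 to 317 CPM, while Ppp1r15a was lower than in the analysed cells, at 82.3 to 139 CPM. The 42 barcodes set aside as B cells by other markers had more Ppp1r15a, at 298, 279, 295 and 357 CPM in the same order of mice, from 3 to 20 UMIs per mouse. With lymphoid barcodes kept, the Xbp1 difference between DEP and PBS turned from −0.09 to 0.03. The 139 barcodes with a mitochondrial share over 7% gave the same order for Ppp1r15a, with 146 and 163 CPM in the DEP mice and 321 and 316 CPM in the PBS mice. These values rest on 8 and 6 UMIs in DEP mice 11 and 13. Nupr1 did not keep the order there, with 183 CPM in DEP mouse 11 above the 143 and 83 CPM of PBS mice 2 and 3.

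The members differed in how they were spread over cells. In thinned counts, the variance over the mean was 1.29 to 1.54 in the 4 mice for Hspa5, 1.31 to 1.47 for Gadd45b, 1.17 to 1.39 for Nupr1 and 1.09 to 1.29 for Ppp1r15a, against 0.98 to 1.05 for Xbp1 and a median over genes of 1.03 to 1.04. A value of 1 is what random sampling of a level shared by all cells gives. Hspa1a reached 2.12 to 3.26 and Hsp90aa1 1.90 to 3.07, at a mean level higher than that of any member. Ppp1r15a and Nupr1 had their lowest values in a DEP mouse, where their means were also lower.

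**Figure D5:**
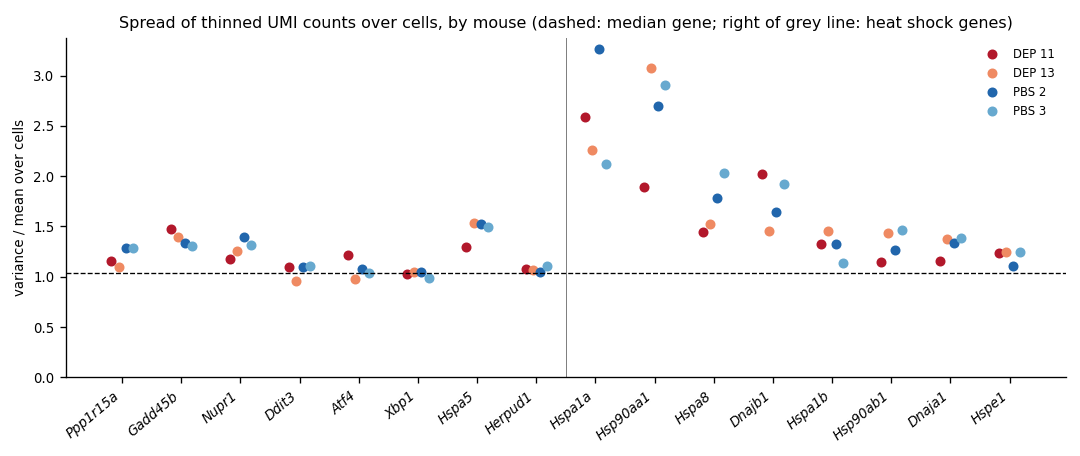
Variance divided by mean of thinned UMI counts over analysed cells (linear axis from 0), 1 point per mouse, for the 8 stress genes and the 8 heat shock genes of highest level. Hspa5 and Gadd45b lie above the dashed median gene in every mouse and Xbp1 close to it, and Hspa1a and Hsp90aa1 lie above all 8 stress genes in every mouse.

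Within single cells the correlations between members were weak. Spearman's rho over the thinned cells of a mouse was 0.09 for Ppp1r15a with Gadd45b in each mouse and 0.07 to 0.13 for Hspa5 with Herpud1, and the other pairs of members lay between −0.09 and 0.12. These are weak values in sparse counts that share their depth and free RNA. With the summed immediate early genes Ppp1r15a had 0.14 to 0.18 and Gadd45b 0.16 to 0.21, and with the summed heat shock genes they had 0.03 to 0.14 and −0.03 to 0.12.

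Across the 16 sums of 4 classes in 4 mice, which share libraries within a mouse, the gene most like Ppp1r15a of 6621 compared was Hspa1a (Pearson's r = 0.86 on log2 CPM), followed by Gadd45b (0.85) and the ER folding enzyme gene P4hb (0.84). Gadd45b had the same neighbours, Ppp1r15a, Hspa1a (0.79) and P4hb (0.79). Nupr1 was nearest to Gm49339 (0.91), Mrpl33 (0.91) and Ifitm2 (0.91), Herpud1 to Gdf3 (0.91), Stmn1 (0.90) and Ppt1 (0.90), and Hspa5 to Phlda1 (0.90) and Cgrrf1 (0.86). Ddit3 was nearest to Fam43a (0.91), Atf4 to Chst12 (0.84) and Xbp1 to Pstpip1 (0.88). Among the members themselves, Ddit3 had 0.73 with Gadd45b and 0.66 with Ppp1r15a, Hspa5 had 0.63 with Herpud1, and Nupr1 had −0.70 with Herpud1, whereas Atf4 had 0.16 with Ppp1r15a and −0.08 with Ddit3.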

How the data were processed

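The deposited values were UMI counts, whole numbers per gene and barcode without scaling by the authors. Per the submitters' processing notes, Cell Ranger, STAR 2.6.1a, R 3.5.1 and mm10 had been used. The version of Cell Ranger, the annotation and the rule for keeping barcodes were not given in the sources used here. Gene identifiers were matched to symbols for 28339 of 28692 genes. Barcodes were kept from 1000 UMIs, from 2.5 on the log10 scale of detected genes and up to a mitochondrial share of 7%, and barcodes with at least 50 immunoglobulin UMIs, or at least 2 B or T cell marker UMIs, per 1000 thinned UMIs were set aside. Doublets were not called, and cells with UMIs of both class genes were left out of the class comparison. Counts were summed per mouse and class. A gene entered the test when it passed 1 CPM in 2 or more sums and had UMIs in 5% or more of cells. Tests were run in edgeR 4.0.16 (TMM, quasi-likelihood test, Benjamini-Hochberg adjustment over all tested genes, R 4.3.3), with the mouse as a block between classes, and Ly6c2 and C1qa were left out of that test. The fit was run on simulated counts with the same dispersion for every gene, a setting that cannot show how it performs at the spread of these mice. CPM are UMIs per 1000000 of the sum, without TMM. Alternatives used DESeq2 1.42.0, limma 3.58.1 (voom), other filters, class rules and left-out mice. The members and lists were chosen with earlier results of these data known. Named genes were the 8 members, in each list the 3 of smallest p in either direction, some called genes beyond that, chosen after their values were seen, and the 3 genes of highest correlation on log2(CPM + 1), of which 1 is not reported here.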

Additional observations from a re-analysis of the deposited data

How the results depend on the processing

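Of 556 alternative values for the 8 genes in 4 comparisons, 511 kept their direction and their side of the 5% threshold, 3 fell short of it, 6 passed it and 36 changed sign. Ppp1r15a, Gadd45b, Nupr1, Ddit3 and Hspa5 stayed lower in DEP mice over all cells under each alternative run, and no changed sign was of a called value. No paired analysis was possible because the mouse numbers of the labels, 11 and 13 against 2 and 3, are not shared between DEP and PBS; without the replicate block the class comparison gave 950 calls. Leaving out 1 mouse leaves a lone sample that is assumed to vary like the others, and the cause of the changes listed here was not tested.

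Over all cells DESeq2 gave 4 calls, the likelihood ratio test 11, no gene filter 88, and leaving out a mouse 0 to 26. In the C1qa class these were 5, 13, 80 and 0 to 25, with 1 for at least 2000 UMIs and 1 for the wider class. In the Ly6c2 class no gene filter gave 4 calls, lymphoid barcodes kept 9, a cut of 2 UMIs 5 and leaving out a mouse 2 to 13. Between the classes DESeq2 gave 813 calls, thinned cells 368, a cut of 2 UMIs 709, unthinned classes 178, the wider class 2136 and leaving out a mouse 941 to 1143. Of the 8 members, 1 was called between the unthinned classes, 6 with the wider class, and 1 with no gene filter over all cells and in the C1qa class. The interaction gave 0 calls with DESeq2, voom, lymphoid barcodes kept and unthinned classes, 1 with the wider class, 5 with RLE scaling, 5 with the likelihood ratio test, 12 with filterByExpr, 12 with a cut of 2 UMIs, 14 with no gene filter and 1 to 34 without a mouse.

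Log2 fold changes that changed sign were small or rested on few UMIs. With cells thinned, Atf4 had 0.14 over all cells, 0.034 in the C1qa class and −0.88 in the Ly6c2 class, Xbp1 had 0.062 in the C1qa class, and between classes Gadd45b had 0.19 and Xbp1 0.11. With lymphoid barcodes kept, Xbp1 had 0.028 over all cells, 0.011 in the C1qa and 0.30 in the Ly6c2 class, where Herpud1 had 0.046. With a cut of 2 UMIs, Gadd45b had 0.16 and Ppp1r15a 0.063 between classes, and Ddit3 had 0.35 and Atf4 −0.21 in the Ly6c2 class. With unthinned classes, Gadd45b had 0.016 and Ppp1r15a 0.079 between classes, and Gadd45b had 0.50 and Nupr1 1.62 in a Ly6c2 class of 2 to 19 cells per mouse. Atf4 in the Ly6c2 class had −0.022 with no gene filter and −0.027 with a 5% mitochondrial limit, and Herpud1 in the C1qa class had −0.016 with the wider class.
Leaving out a mouse moved Atf4 from −0.28 to 0.24 over all cells, from −0.39 to 0.20 in the C1qa class and from −0.25 to 0.36 in the Ly6c2 class. Herpud1 ran from −0.13 to 0.069, from −0.044 to 0.13 and from −0.52 to 0.40 in the same order, and Xbp1 from −0.22 to 0.064 over all cells and from −0.22 to 0.043 in the C1qa class. In the Ly6c2 class Ddit3 ran from −2.17 to 0.21 and Gadd45b from −0.997 to 0.38, with DEP mouse 11 deciding the sign of both, and between classes Ddit3 ran from −0.18 to 0.28.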
